A study of Mus musculus with 39 samples.

Results

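The comparison described here is the long-term response of microglia from APP23 mice to 4 injections of lipopolysaccharide (LPS). It sets the 4 libraries of APP23 mice that had received 4 daily LPS injections (4xLPS) against the 6 libraries of APP23 mice that had received vehicle (PBS). These are 10 of the 39 libraries of the series, and every one of the 10915 gene entries of the deposited expression table was compared. All mice were female, on the C57BL/6J background, were injected intraperitoneally at 3 months of age and had their microglia sorted and sequenced (polyA RNA) at 9 months of age.

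APP23 mice were hemizygous for a transgene of human APP with the Swedish double mutation, driven by the Thy-1 promoter. That promoter is used to drive expression in neurons, so any effect of the transgene on microglia is modelled through another cell type. The dose was 500 µg LPS from Salmonella enterica serotype typhimurium per kg body weight. APP23 4xLPS mice (n = 4) received it on 4 days, APP23 1xLPS mice (n = 5) received 1 LPS injection followed by vehicle, and APP23 PBS mice (n = 6) received vehicle only. Wildtype littermates were treated in the same 3 ways, and 6 wildtype 4xLPS and 9 wildtype PBS libraries are used below. Whether each library stands for 1 mouse of its own is not stated in the labels. The p-values therefore cover the spread between libraries, part of which may be technical.

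Microglia are the resident macrophages of the brain. They bind LPS through CD14 and Toll-like receptor 4, which drive NF-kB-dependent cytokine genes and, through the adaptor TRIF, type I interferon and its target genes. A first exposure to LPS can leave macrophages with a stronger (trained) or weaker (tolerant) response to later stimuli, and amyloid plaques draw microglia into a separate state marked by genes such as Apoe, Trem2, Cst7 and Clec7a. The comparison asks what expression difference remained in APP23 microglia 6 months after the injections.

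All values are log expression as the authors corrected it, taken to be on a log2 scale. No library stood apart: library means ran from 9.00 to 9.01 and correlations between libraries of a group from 0.9992 to 0.9997. The homeostatic microglial markers identified the cells. All 25 were in the table, P2ry12 and Tmem119 at percentiles 99.9 and 99.8 of the level of all entries and the lowest, Ltc4s, at 70.2. Their summed level spanned 17.02 to 17.10 in APP23 4xLPS libraries and 17.03 to 17.06 in APP23 PBS libraries. Of markers of other cells, 7 of 13 of border macrophages, 5 of 12 of monocytes, 1 of 12 of neutrophils and 1 of 18 of T, NK and B cells were in the table. The defining genes Ly6c2, S100a8, S100a9 and Cd3e were not among its entries. The highest present were Stab1, Ccr2, Csf3r and Cd79b, at percentiles 99.9, 46.1, 98.8 and 53.4. The other border macrophage markers present lay far below Stab1, at percentiles from 2.66 (Pf4) to 35.6 (Mrc1). Also present were 7 of 14 dendritic cell, 3 of 12 astrocyte, 2 of 15 neuron, 4 of 13 oligodendrocyte and 3 of 14 endothelial and pericyte markers. Among these were Slc1a3 (97.8), Cnp (85.4) and Pecam1 (61.5). The other astrocyte markers present, Clu and Aqp4, lay at percentiles 38.4 and 2.68. The share of RNA from other cells was not measured. A difference in a bulk sample cannot tell fewer cells of a type from less RNA per cell.

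No gene passed the test between APP23 4xLPS and APP23 PBS microglia. At a Benjamini-Hochberg adjusted p under 0.05 in limma, 0 of 10915 entries were called (0%), and the lowest adjusted p was 0.0739. At an unadjusted p under 0.05, 832 entries (7.62%) passed, 421 of them higher (3.86%) and 411 lower (3.77%) in 4xLPS. The differences were small: the median absolute difference was 0.019 log2 units, the largest was 0.25, and the median 95% interval reached 0.053 log2 units to either side. With 4 libraries against 6, that interval holds for a single gene before adjustment and is no detection limit of the adjusted test. Even the largest difference was not called, so differences wider than the interval may have been missed.

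The count of called genes moved most with the degrees of freedom counted for the deposited values. The authors had removed surrogate variables, and 9 of the 33 residual degrees of freedom held no variance at all; the test used the 24 that did. Counting all 33 called 27 genes (0.247%), 15 higher (0.137%) and 12 lower (0.11%) in 4xLPS. Their adjusted p-values were 0.0739 to 0.39 with 24 degrees of freedom, so they are given below as values. Genes named from these 27 were chosen after their values were seen.

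The largest difference of the table was in 2610035D17Rik, a long intergenic non-coding RNA gene (chromosome 11, 113043895 to 113201838, minus strand, mm10). Its values were 8.44, 8.50, 8.62 and 8.54 in APP23 4xLPS libraries, against 8.27, 8.21, 8.34, 8.30, 8.21 and 8.35 in APP23 PBS libraries. Every 4xLPS library lay above every PBS library, as did those of 154 entries (1.41%) of the table, while 112 (1.03%) lay wholly below. The difference was 0.25 ± 0.04 log2 units (SE; limma adjusted p = 0.0739), a 1.19-fold level. It passed when entries of low level were left out of the test (limma adjusted p = 0.0486). Of the 10 fits that left out 1 library it passed in 3. They were those without 4xLPS library 1 (limma adjusted p = 0.0294), PBS library 3 (0.0495) or PBS library 6 (0.0433). It did not pass without the mean-variance trend, with robust fitting, after quantile normalization or in a fit of only the groups compared. In wildtype mice 4xLPS and PBS libraries differed by 0.0021 log2 units for this gene (adjusted p = 0.985), and the test of the difference between the genotypes gave 0.24 ± 0.06 (SE; adjusted p = 0.0446). That call was kept in 14 of the 25 fits that left out 1 library and lost in 11, among them those without APP23 4xLPS library 2, 3 or 4.

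The 15 genes called higher with 33 degrees of freedom included Dock9, Wdr47 and Fam199x. Dock9, which activates the small GTPase Cdc42 and so acts on the actin skeleton (chromosome 14, 121542046 to 121797837, minus strand), measured 10.26, 10.17, 10.20 and 10.21 in 4xLPS and 10.05, 10.07, 10.10, 10.08, 10.03 and 10.14 in PBS. The groups did not overlap, and the difference was 0.13 ± 0.03 log2 units (SE; limma adjusted p = 0.39). Wdr47, a microtubule-associated protein, measured 9.23, 9.17, 9.17 and 9.26 in 4xLPS and 9.07, 9.05, 9.04, 9.05, 9.01 and 9.07 in PBS, again without overlap. Fam199x measured 9.37, 9.44, 9.41 and 9.41 in 4xLPS and 9.29, 9.11, 9.29, 9.30, 9.22 and 9.24 in PBS. All 4 treated libraries lay above the highest PBS library for this gene too.

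St8sia4, a polysialyltransferase that adds polysialic acid to cell-surface proteins, measured 9.41, 9.37, 9.29 and 9.41 in 4xLPS and 9.09, 9.20, 9.33, 9.18, 9.14 and 9.12 in PBS. Its groups overlapped through PBS library 3, which exceeded 4xLPS library 3. Hnrnpd (AUF1), which binds AU-rich elements in cytokine mRNAs and sets their decay, measured 8.98, 8.91, 8.90 and 8.92 in 4xLPS and 8.81, 8.85, 8.87, 8.73, 8.83 and 8.77 in PBS, without overlap. Polr3d, a subunit of RNA polymerase III, differed by 0.13 and Plekha2, which binds a phosphoinositide made by PI3-kinase signalling, differed by 0.066 log2 units. Ctsh, the lysosomal protease cathepsin H (chromosome 9, 90054152 to 90076089, plus strand), had the narrowest spread of them. It measured 11.38, 11.39, 11.41 and 11.38 in 4xLPS and 11.35, 11.33, 11.33, 11.33, 11.31 and 11.33 in PBS, a difference of 0.058 ± 0.013 log2 units (SE) without overlap.

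**Figure D1:**
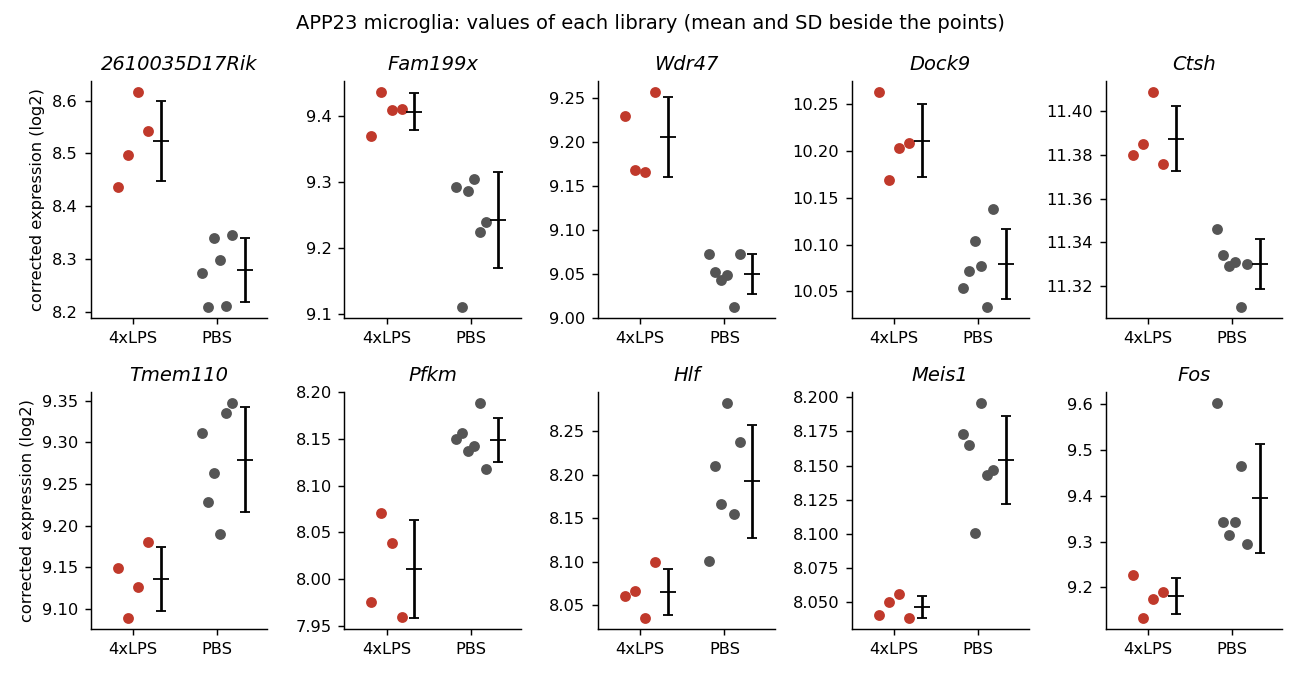
Corrected expression (log2) of 10 genes in each APP23 library, 4xLPS (red, n = 4) left of PBS (grey, n = 6), with the mean and SD beside the points; each panel has its own axis, which does not start at 0. In each of the 10 genes shown the groups do not overlap, and in Hlf they nearly touch; none passed the adjusted test.

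The 12 genes called lower with 33 degrees of freedom included Pfkm, Tmem110 and Meis1. Pfkm, an isoform of the glycolytic enzyme phosphofructokinase, measured 7.98, 8.07, 8.04 and 7.96 in 4xLPS and 8.15, 8.16, 8.14, 8.14, 8.19 and 8.12 in PBS. Tmem110, an endoplasmic reticulum protein that promotes store-operated calcium entry, measured 9.15, 9.09, 9.13 and 9.18 in 4xLPS and 9.31, 9.23, 9.26, 9.19, 9.34 and 9.35 in PBS. In both genes every 4xLPS library lay below every PBS library, with differences of -0.14 log2 units each. Meis1, a homeobox transcription factor, measured 8.04, 8.05, 8.06 and 8.04 in 4xLPS and 8.17, 8.17, 8.10, 8.20, 8.14 and 8.15 in PBS.

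Others of the same set differed by similar amounts. Got1, the cytosolic aspartate aminotransferase, differed by -0.089, the kinase gene Hipk1 by -0.10, the zinc finger gene Patz1 by -0.10, Rab3ip, an exchange factor for Rab8, by -0.11, and the DNA base excision repair glycosylase Nthl1 by -0.091 log2 units. The groups were apart in 12 of the 15 higher and 10 of the 12 lower genes of the 27, against 2.44% of all entries; both measures rest on the same libraries, so the one is no support for the other.

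The 25 genes described whatever their result included the receptors, cytokines and state markers of microglia, and 0 of the 25 passed the test. The LPS receptor genes were nearly equal: Tlr4 differed by 0.012 (95% interval -0.028 to 0.052) and Cd14 by -0.0028 log2 units (95% interval -0.037 to 0.032). The homeostatic markers P2ry12, Tmem119 and Cx3cr1 differed by 0.015, 0.045 and 0.027 log2 units. Of plaque-associated genes, Apoe differed by -0.0087, Trem2 by 0.017, Clec7a by -0.016, Cst7 by -0.037, Itgax by 0.082 and Axl by 0.0084 log2 units, each with an interval that included 0. Spp1 (osteopontin) had the widest interval, -0.18 to 0.31 around 0.062 log2 units.

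Among these genes the lowest unadjusted p-values after that of Dock9, described above, belonged to Fos and Ccl3. Fos, the immediate early transcription factor gene (chromosome 12, 85473890 to 85477273, plus strand), measured 9.23, 9.13, 9.17 and 9.19 in 4xLPS and 9.60, 9.34, 9.32, 9.34, 9.47 and 9.29 in PBS. All 4 treated libraries lay below the PBS libraries, with a difference of -0.21 ± 0.08 log2 units (SE; limma unadjusted p = 0.0094, adjusted p = 0.465). In wildtype Fos ran from 9.01 to 9.36 in 4xLPS and from 8.81 to 9.26 in PBS. The chemokine gene Ccl3 measured 8.94, 8.87, 8.82 and 8.96 in 4xLPS and 8.98, 9.06, 8.99, 8.96, 8.94 and 8.97 in PBS. Its groups overlapped, with a difference of -0.087 ± 0.031 (SE; limma adjusted p = 0.467), and its neighbour Ccl4 differed by -0.094 and Tnf by -0.11 log2 units.

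**Figure D2:**
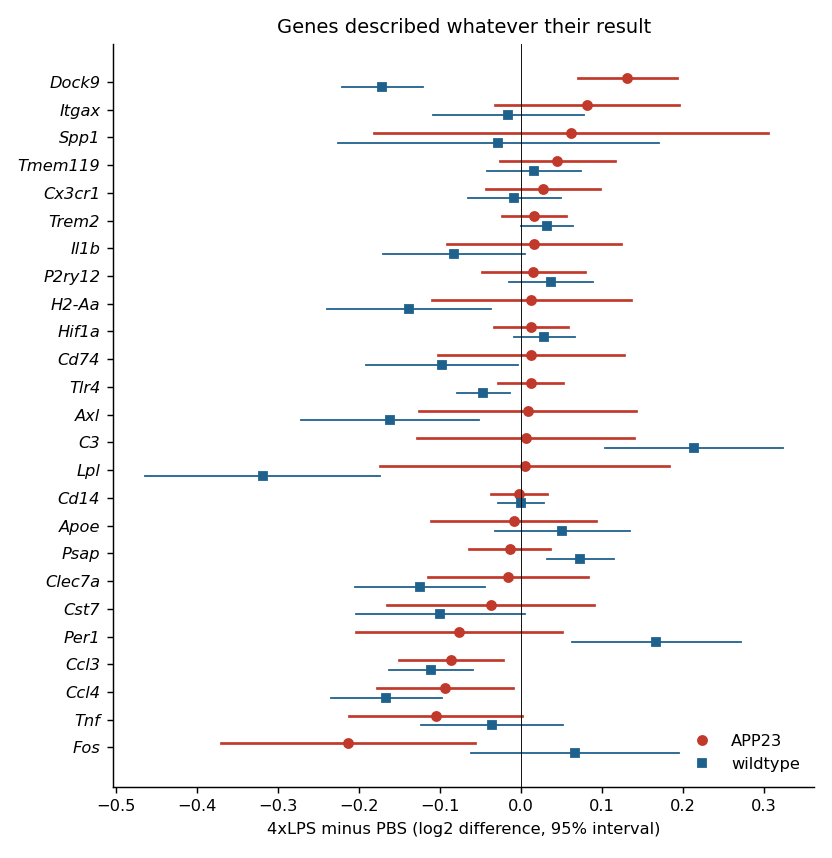
Difference 4xLPS minus PBS (log2 units, point) with its 95% interval (line) for the 25 genes described whatever their result, in APP23 (red circles) and wildtype microglia (blue squares), ordered by the APP23 difference. In APP23 the intervals of Dock9, Ccl3, Ccl4 and Fos leave out 0 before adjustment, and 0 of the 25 passed after it.

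The genes were also read by pathway. In 0 of the 27 lists of gene groups did a member pass the adjusted test, and the median difference over all entries was 0.00053 log2 units. The list with the most members at an unadjusted p under 0.05 on 1 side was the type I interferon response. Of its 34 genes 29 were measured, 23 of the 29 lay lower in 4xLPS, against 49.1% of all entries, and the median was -0.035 log2 units. At an unadjusted p under 0.05, 8 of the 29 were lower (27.6%, against 3.77% of all entries) and 1, the receptor gene Ifnar1, was higher (3.45%, against 3.86%). Members of a list vary together, so these counts describe the list and are no test of it. Without 4xLPS library 2 the count of lower members was 5, and in the test without entries of low level it was 3. List members named at an unadjusted p were chosen after their values were seen.

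The 8 lower members were Isg15, a ubiquitin-like modifier, Irf9, the DNA-binding subunit of the interferon-activated complex ISGF3, the oligoadenylate synthetases Oas1a and Oas2, the nucleic acid sensor Zbp1, and the interferon-induced genes Trim30a, Rtp4 and Ifi27l2a. Isg15 measured 7.07, 7.07, 7.04 and 7.13 in 4xLPS and 7.10, 7.15, 7.08, 7.20, 7.19 and 7.17 in PBS, a difference of -0.071 ± 0.024 log2 units (SE; limma unadjusted p = 0.00711, adjusted p = 0.44). Zbp1 measured 7.47, 7.44, 7.43 and 7.57 in 4xLPS and 7.54, 7.70, 7.53, 7.66, 7.58 and 7.62 in PBS. Both genes overlapped between the groups, as 4xLPS library 4 reached into the PBS range. Trim30a, an interferon-induced protein that lowers the NF-kB activators TAB2 and TAB3, was the one member whose groups were apart, by less than the last digit shown: 10.69, 10.64, 10.69 and 10.72 in 4xLPS, against 10.73, 10.74, 10.73, 10.76, 10.75 and 10.72 in PBS.

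Oas2 had the largest difference of the list, -0.14 ± 0.07 log2 units (SE; limma adjusted p = 0.624). The Oas genes and Trim30a belong to families of similar neighbouring genes, as does Ifi27l2a, and the sources used here do not state how the authors' counting divided reads among them. The mean over the 29 genes was 8.95, 8.97, 8.94 and 9.00 in 4xLPS libraries and 8.96, 9.00, 8.95, 9.05, 9.01 and 9.00 in PBS libraries. The list means overlapped, with PBS library 4 highest and 4xLPS library 3 lowest. The APP23 PBS libraries had the highest median of 4 groups. It was 9.001, against 8.959 in APP23 4xLPS, 8.955 in wildtype 4xLPS and 8.967 in wildtype PBS. In wildtype mice the median of the same list was -0.0068 log2 units, with 4 lower members at an unadjusted p under 0.05 (7.65% of all entries were), and 0 of the 29 passed the test of a difference between the genotypes. Against APP23 1xLPS, which shares the 4xLPS libraries, 25 of the 29 lay lower in 4xLPS, 4 of them at an unadjusted p under 0.05 (4.77% of all entries were) and 0 after adjustment.

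The interferon-stimulated response element, read by ISGF3, was searched as GAAA, any 2 bases and GAAA again, on both strands, in RefSeq promoter sequences of 250 bases before to 50 bases after each start (GRCm38.p6). It occurred in 3.44% of 32851 promoters in the reference table. Of the 29 measured list genes 19 had a promoter there, and 13 of their 22 promoters (59.1%) held the motif. Of the 8 lower members 4 had one, and 3 of these (Isg15, Oas1a and Trim30a) held the motif. Neither promoter of the remaining gene, Irf9, held it. The promoters of the 3 are shown because they hold the motif. A further Trim30a promoter, chr7:104446076-104446375, also held 1 copy and is not shown. Capitals mark the motif, overlapping copies run together, and in Trim30a it lies on the opposite strand. A match is a description of the sequence and not a measured binding site.

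Isg15 promoter, chr4:156200769-156201068, minus strand: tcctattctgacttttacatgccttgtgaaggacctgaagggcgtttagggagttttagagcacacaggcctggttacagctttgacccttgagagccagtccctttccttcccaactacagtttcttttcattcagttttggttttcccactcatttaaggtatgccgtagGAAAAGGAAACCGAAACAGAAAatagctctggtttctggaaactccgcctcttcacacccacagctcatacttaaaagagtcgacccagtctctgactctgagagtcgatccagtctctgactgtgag

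Oas1a promoter, chr5:120907476-120907775, minus strand: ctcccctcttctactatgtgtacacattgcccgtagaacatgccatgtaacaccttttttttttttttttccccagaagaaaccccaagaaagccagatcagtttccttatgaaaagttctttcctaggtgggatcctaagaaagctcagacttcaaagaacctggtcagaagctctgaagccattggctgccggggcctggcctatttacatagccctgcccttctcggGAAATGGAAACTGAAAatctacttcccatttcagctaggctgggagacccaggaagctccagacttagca

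Trim30a promoter, chr7:104465144-104465443, minus strand: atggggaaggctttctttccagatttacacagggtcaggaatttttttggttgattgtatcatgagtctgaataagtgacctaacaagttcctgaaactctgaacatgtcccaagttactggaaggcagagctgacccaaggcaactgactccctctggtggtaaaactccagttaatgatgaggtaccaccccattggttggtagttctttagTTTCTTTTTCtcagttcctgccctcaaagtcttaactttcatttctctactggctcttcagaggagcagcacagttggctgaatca

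The Isg15 promoter holds 3 overlapping copies that begin 78 bases before the start. The Oas1a promoter holds 2 overlapping copies that begin 20 bases before it, and the Trim30a promoter shown holds 1 copy 36 bases before it.

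The inflammatory cytokines and chemokines had 13 of 22 genes measured and a median of -0.052 log2 units. At an unadjusted p under 0.05, 3 of the 13, the chemokine genes Ccl2, Ccl3 and Ccl4, were lower, against 3.77% of all entries, and 0 were higher. Ccl2, which attracts monocytes, measured 7.060, 7.057, 7.002 and 7.030 in 4xLPS and 7.103, 7.142, 7.040, 7.166, 7.101 and 7.201 in PBS; PBS library 3 lay inside the treated range. The mean of the 13 genes was 8.75, 8.70, 8.70 and 8.75 in 4xLPS and 8.74, 8.76, 8.77, 8.77, 8.78 and 8.78 in PBS. Without 4xLPS library 3 the count of lower members was 1, and without PBS library 1 it was 5.

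TGF-beta signalling, which maintains microglial identity, had 22 of 28 genes measured. Of these, 5 (22.7%, against 3.77% of all entries) were lower at an unadjusted p under 0.05: the receptor gene Tgfbr2 (-0.030), the signal transducer Smad3 (-0.072), its inhibitor Smad7 (-0.062), the ubiquitin ligase Smurf2 (-0.11) and the SMAD anchor Zfyve9 (-0.082 log2 units). They include both activators and inhibitors of the pathway. At that level 1 member (4.55%, against 3.86% of all entries) was higher, by 0.032: Nrros, which is needed to activate latent TGF-beta on microglia. The list median was -0.0075 log2 units and 0 members passed after adjustment. Without 4xLPS library 2 the count of lower members was 1, and without PBS library 6 it was 3.

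Immediate early genes, which also respond to cell isolation, lay lower in 18 of 20 measured, against 49.1% of all entries, with a median of -0.023 log2 units. At an unadjusted p under 0.05 Fos and Ier5 were lower (10%, against 3.77% of all entries) and Klf6 higher (5%, against 3.86%). APP23 1xLPS libraries also lay lower than the same PBS libraries in 18 of the 20, with a median of -0.056 log2 units. Against 1xLPS, 4xLPS libraries lay higher in 17 of the 20. The mean of the 20 genes was 9.47, 9.38, 9.43 and 9.45 in 4xLPS and 9.51, 9.44, 9.47, 9.47, 9.46 and 9.46 in PBS, and the part of isolation in this difference was not tested. The APP23 PBS libraries were the highest of 4 groups. Their median was 9.47, against 9.44 in APP23 4xLPS, 9.42 in wildtype 4xLPS and 9.41 in wildtype PBS. Clock and glucocorticoid genes lay lower in 15 of 21, and 3 of them (14.3%, against 3.77% of all entries) were lower at an unadjusted p under 0.05: the clock output gene Hlf (-0.13), the clock repressor Cry1 (-0.066) and the glucocorticoid receptor gene Nr3c1 (-0.038 log2 units). Hlf measured 8.06, 8.07, 8.04 and 8.10 in 4xLPS and 8.10, 8.21, 8.17, 8.28, 8.15 and 8.24 in PBS, and its groups were apart by less than the last digit shown. The hour of isolation is not given in the labels.

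Proliferation genes lay lower in 23 of 30, against 49.1% of all entries (median -0.027 log2 units). At an unadjusted p under 0.05 only Birc5 (survivin) was lower, 3.33% of the list against 3.77% of all entries. Genes of the HIF-1 response lay lower in 13 of 17. Of these, 1 (5.88%, against 3.77% of all entries) was at that level, the pyruvate dehydrogenase kinase gene Pdk1 (-0.068 log2 units). Glycolysis was divided, with the glucose transporter gene Slc2a3 higher by 0.13 and Pfkm lower among 23 measured. Each is 4.35% of the list, against 3.86% of all entries higher and 3.77% lower at that level. Cytosolic ribosomal protein genes lay lower in 48 of 71, by a median of -0.0033 log2 units.

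Other lists had medians above 0, among them those of lysosome, heat shock and MHC class II. Lysosomal genes lay higher in 27 of 42, and 3 (7.14%, against 3.86% of all entries) had an unadjusted p under 0.05: Ctsh, the glucuronidase gene Gusb (0.033) and the lysosomal transcription factor gene Tfe3 (0.037 log2 units). Heat shock genes lay higher in 13 of 18. The chaperone gene Dnajb1 (0.061) and the heat shock factor gene Hsf1 (0.053 log2 units) had an unadjusted p under 0.05 (11.1%, against 3.86% of all entries). MHC class II genes lay higher in 11 of 15, with 0 at that level. MHC class I genes lay lower in 14 of 21, with a median of -0.0047 log2 units. Rap1 signalling lay lower in 14 of 27, with a median of -0.0016 log2 units; 3 of the 27 (11.1%), against 3.86% of all entries, were higher at that level, the integrin gene Itgal, Crkl and Rassf5.

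The 25 homeostatic genes had a median of 0.0086 log2 units, and 18 of them lay higher (72%, against 50.9% of all entries). At an unadjusted p under 0.05, 2 were lower (8%, against 3.77% of all entries) and 0 higher. The transcription factor gene Sall1 (-0.033) was among those lower. The 29 measured plaque-associated genes had a median of 0.0043 log2 units. Of them 1, the lysozyme gene Lyz2 (0.052), was higher at an unadjusted p under 0.05 (3.45%, against 3.86% of all entries). In the lists of complement, MHC class I, mTOR and Akt signalling and histone H3K4 methylation 0 members did so in either direction.

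**Figure D3:**
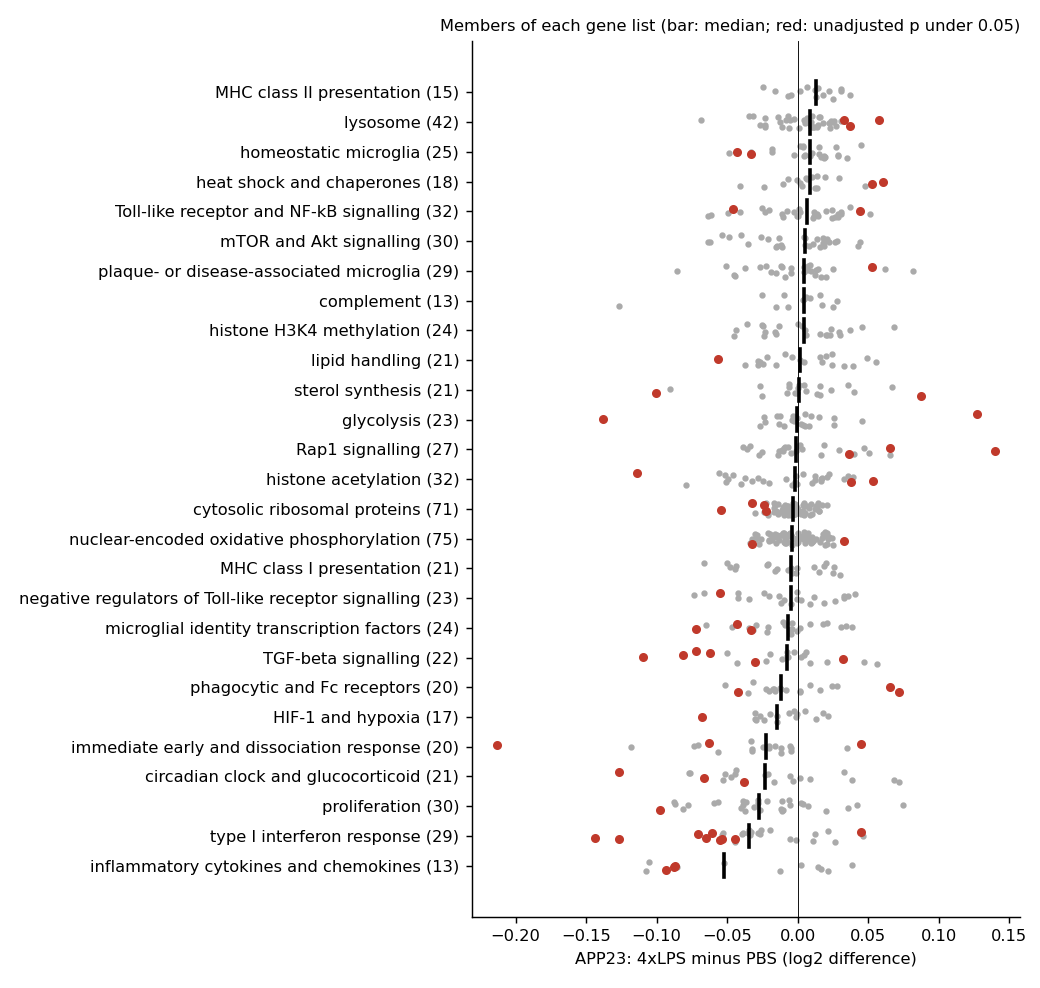
Difference APP23 4xLPS minus APP23 PBS (log2 units, x axis) of each measured gene in 27 lists, with the number of genes in brackets, ordered by the list median (black bar); red points have an unadjusted p under 0.05. The interferon and inflammatory lists lie lowest, with medians of -0.035 and -0.052 log2 units, and no point passed the adjusted test.

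The response to 4xLPS in APP23 microglia differed from that in wildtype microglia at 57 genes (0.522% of entries; limma adjusted p under 0.05 for the difference between the genotypes). Counting all 33 degrees of freedom gave 579 (5.3%), and a fit of only the groups compared, with 21, gave 409. Like the fit with 33, the latter set aside no direction for the removed surrogate variables, so its p-values may be too small. The count of 57 was 34 without APP23 4xLPS library 4, 35 without 4xLPS library 1 and 37 without APP23 PBS library 1. With 24, the APP23 response lay above the wildtype response at 28 of them (0.257%) and below it at 29 (0.266%). In all but 1 of them, 2610035D17Rik, the responses had opposite signs. The 57 were chosen for a difference between the responses, so opposite signs follow in part from the choice. Over all entries, 46.2% had the same sign in both genotypes. In wildtype alone, 38 of the 57 passed the test of 4xLPS against PBS (1.51% of all entries did), while in APP23 alone 0 did (0% of all entries). The wildtype response is a part of the difference tested, so the choice raises its count. These counts differ in precision: the median SE was 0.021 log2 units in wildtype (6 and 9 libraries) and 0.026 in APP23 (4 and 6 libraries).

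Dock9 had the largest genotype difference, 0.30 ± 0.04 log2 units (SE; limma adjusted p = 0.000155). In APP23 its libraries ran from 10.17 over a median of 10.21 to 10.26 in 4xLPS and from 10.03 over 10.07 to 10.14 in PBS. In wildtype they ran from 10.07 over 10.11 to 10.17 in 4xLPS (n = 6) and from 10.23 over 10.28 to 10.33 in PBS (n = 9). The groups thus did not overlap in either genotype and lay in opposite order. Wildtype PBS libraries were the highest of the 4 groups.

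Abcb1b, which encodes a P-glycoprotein drug efflux pump, showed the same order. Its values were 9.56 to 9.58 in APP23 4xLPS against 9.38 to 9.53 in APP23 PBS, and 9.39 to 9.47 in wildtype 4xLPS against 9.51 to 9.62 in wildtype PBS, a genotype difference of 0.23 ± 0.04 log2 units (SE; limma adjusted p = 0.00652). It has a close copy, Abcb1a, with which reads may be shared. Zbtb38, a zinc finger protein that binds methylated DNA, differed by 0.21 (adjusted p = 0.0219), Fam199x by 0.23 (adjusted p = 0.0223) and St8sia4 by 0.28 log2 units (adjusted p = 0.0417). Of these 5 genes, St8sia4 passed in 16 of the 25 fits that left out 1 library and the others in 25 of 25.

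Alox5 and Klf10 were also above wildtype; they were picked after their values were seen. Alox5, the 5-lipoxygenase that starts leukotriene synthesis, measured 10.58 to 10.65 in APP23 4xLPS against 10.46 to 10.56 in APP23 PBS, and 10.47 to 10.59 in wildtype 4xLPS against 10.56 to 10.70 in wildtype PBS. The genotype difference was 0.20 ± 0.03 log2 units (SE; limma adjusted p = 0.00726). Klf10, a TGF-beta-induced transcription factor gene, differed by 0.21 log2 units (adjusted p = 0.029). Its mean level was 9.24 in APP23 4xLPS and 9.15 in APP23 PBS, against 9.25 in wildtype 4xLPS and 9.38 in wildtype PBS. Hnrnpd, described above, differed by 0.16 log2 units (adjusted p = 0.0371).

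On the other side, Sdr42e1, of the short-chain dehydrogenase family, had a genotype difference of -0.27 ± 0.05 log2 units (SE; limma adjusted p = 0.0219). In APP23 it measured 8.26 to 8.37 in 4xLPS and 8.28 to 8.38 in PBS, which overlap. In wildtype it measured 8.39 to 8.48 in 4xLPS and 8.09 to 8.29 in PBS, which do not. Both APP23 groups thus lay at the upper end of the wildtype PBS range or between the wildtype groups. Kbtbd8, an adaptor of a cullin ubiquitin ligase, had the same form, with -0.018 in APP23 against 0.19 log2 units in wildtype and a genotype difference of -0.21 (adjusted p = 0.0391).

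Tmem110 differed by -0.25 (adjusted p = 0.0219), Tomm20, an import receptor of the mitochondrial outer membrane, by -0.19 (adjusted p = 0.043), and Cdc27, a subunit of the anaphase-promoting complex, by -0.19 log2 units (limma adjusted p = 0.0223). For Cdc27 both genotypes contributed, with -0.090 in APP23 against 0.097 log2 units in wildtype. In the fits that left out 1 library, Sdr42e1, Tmem110 and Cdc27 passed in 25 of 25, Kbtbd8 in 22 and Tomm20 in 14. Btk, the tyrosine kinase of immune receptor signalling, which was picked after its values were seen, differed by -0.095 log2 units (adjusted p = 0.0307) with -0.055 in APP23 against 0.040 in wildtype.

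Few members of the gene lists were among the 57. They were Tfe3 (genotype difference 0.087, adjusted p = 0.0403), the acetyltransferase gene Kat6a (0.12, adjusted p = 0.0403), the heat shock factor gene Hsf2 (-0.11, adjusted p = 0.0417) and the ribosomal protein gene Rpl37a (-0.059 log2 units, limma adjusted p = 0.0336). Tomm20 and Rpl37a have processed pseudogene copies, so reads may be shared. In the authors' co-expression modules, the module named pink held 13 and the module named red 7 of the 29 genes with a lower response in APP23, and the turquoise and yellow modules 8 each of the 28 with a higher one. The modules differ in size: pink held 447, red 733, turquoise 1839 and yellow 878 of the 10907 entries that have a module. The modules were built by the authors from expression, so their membership is not independent of these values.

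**Figure D4:**
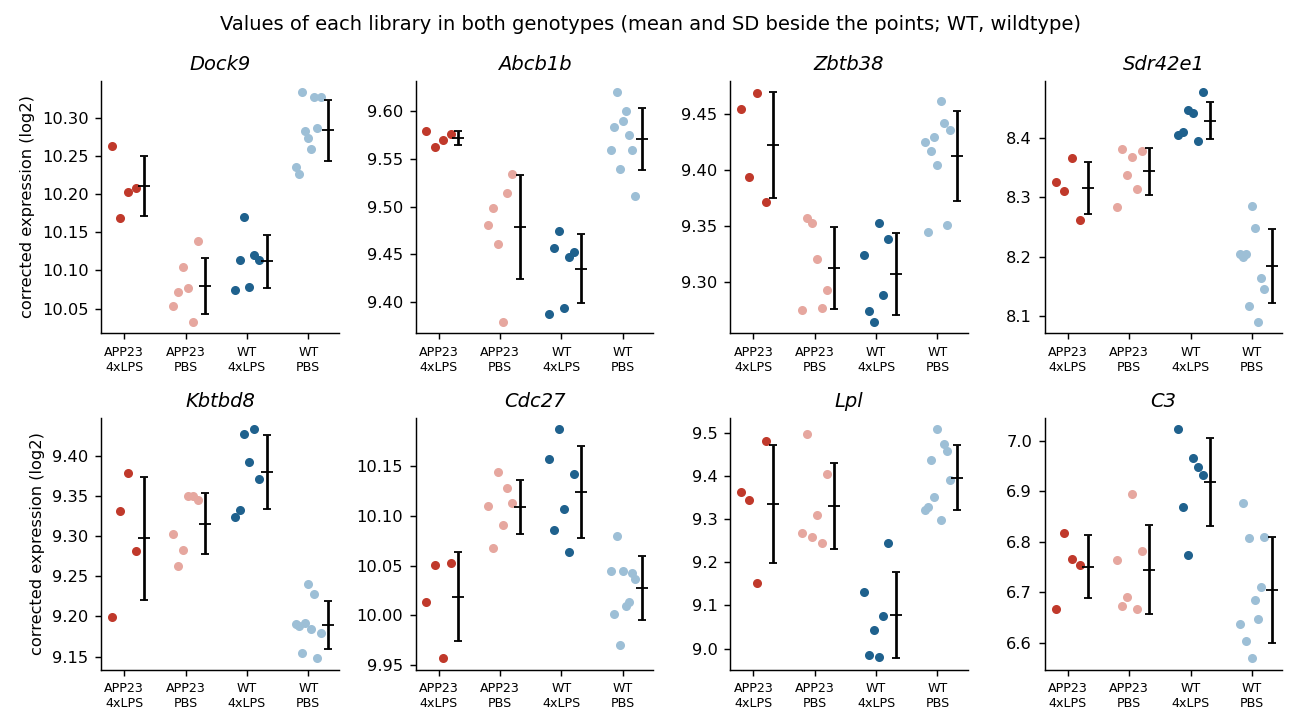
Corrected expression (log2) of 8 genes in each library, with APP23 4xLPS (n = 4), APP23 PBS (n = 6), wildtype 4xLPS (n = 6) and wildtype PBS (n = 9) from left to right and the mean and SD beside the points; axes do not start at 0. For Dock9, Abcb1b and Zbtb38 the 4xLPS libraries lie above PBS in APP23 and mostly below it in wildtype, while Sdr42e1, Kbtbd8, Lpl and C3 differ between treatments in wildtype and overlap in APP23.

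The genes called in wildtype mice were also read in APP23. Between wildtype 4xLPS and PBS, 165 entries (1.51%) passed the test. Their median absolute difference was 0.024 log2 units in APP23 and 0.091 in wildtype, and 52 of the 165 (31.5%) had the same sign in both genotypes, against 46.2% of all entries. The 165 were chosen for their wildtype difference, so the larger wildtype median follows from the choice. Of the 165, 38 passed the test of a difference between the genotypes, against 57 of all 10915 entries (0.522%). The wildtype difference is a part of that test, so a larger share follows in part from the choice. The APP23 and wildtype comparisons share no library. At an unadjusted p under 0.05 in APP23, 3 of the 165 differed in the wildtype direction and 28 in the opposite one. Opposite signs also prevailed at that level over all 10915 entries, with 318 in the wildtype direction and 514 in the opposite one. The Pearson correlation of the APP23 and wildtype differences across the 10915 entries was -0.14. All 6 groups were corrected together by the authors, and the part of that correction in the opposite signs was not tested.

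Lpl and C3 were called in wildtype. Lpl, the lipoprotein lipase gene, measured 9.36, 9.35, 9.15 and 9.48 in APP23 4xLPS and 9.27, 9.50, 9.26, 9.31, 9.24 and 9.41 in APP23 PBS, a difference of 0.0045 log2 units (95% interval -0.17 to 0.18). In wildtype the difference was -0.32 log2 units (limma adjusted p = 0.0226). The complement gene C3 differed by 0.0057 in APP23 and by 0.21 log2 units in wildtype (limma adjusted p = 0.0394). The test of the difference between the genotypes did not pass for either gene, with a limma adjusted p of 0.18 for Lpl and 0.248 for C3. Ccl3 and Ccl4 lay lower after 4xLPS in both genotypes, with -0.087 and -0.094 in APP23 and with -0.11 and -0.17 log2 units in wildtype, where they passed the test.

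**Figure D5:**
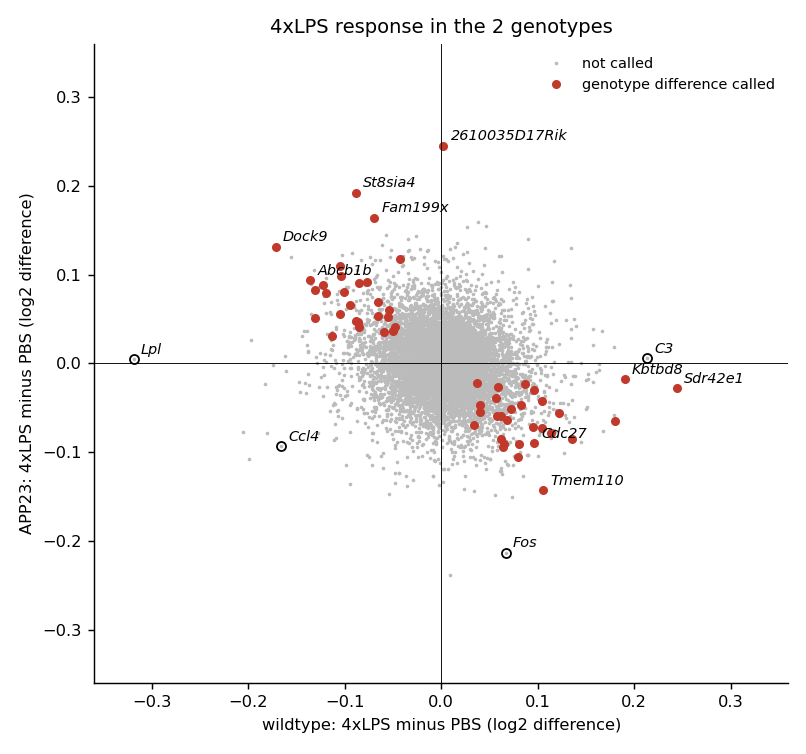
Difference 4xLPS minus PBS (log2 units) of 10915 entries in APP23 (y axis) and wildtype microglia (x axis); red points mark the 57 genes whose responses differed between the genotypes (limma adjusted p under 0.05), and open circles mark Lpl, C3, Ccl4 and Fos, which did not. The red points lie at the upper left and lower right, with 2610035D17Rik alone at 0.0021 log2 units in wildtype.

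Against a single injection, APP23 4xLPS libraries differed at 0 of 10915 entries after adjustment (0%; lowest limma adjusted p 0.0662) and at 1063 (9.74%) at an unadjusted p under 0.05; with 33 degrees of freedom 162 (1.48%) were called. Dock9 differed by 0.047, Abcb1b by 0.095 and 2610035D17Rik by 0.025 log2 units between 4 injections and 1. APP23 1xLPS against the same PBS libraries also gave 0 called entries (0%), with 924 (8.47%) at an unadjusted p under 0.05. For 2610035D17Rik that difference was 0.22 log2 units (adjusted p = 0.071), beside 0.25 for 4xLPS; both use the same 6 PBS libraries, so the one does not back the other.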

How the data were processed

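Microglial RNA of 39 libraries in 6 groups was analysed. Per the labels' protocols, sorted microglia were amplified with a Smart-seq v4 kit and libraries were made with Nextera XT. The labels speak of pooling by genotype for sequencing but assign no library to a lane. Per the submitters' processing notes, STAR, HOMER, FastQC, limma and DESeq2 were used with build mm10; the sources used here state no settings. The deposited log2 values were normalized, logged and corrected by surrogate variable analysis by the authors, per the file's sheet name; the log base is not stated and was read as 2. Sequencing depth is unknown. The table held 10915 entries, 16 of them date-like, and 1 column that no label matched, which was not used. A second deposited table of 13624 genes gave the authors' modules, with module membership scores and their p-values as the authors computed them, per the file headers; only the module names were used.

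From these values, limma 3.58.1 (R 4.3.3) fitted 6 group means with a mean-variance trend and, as covariates, the 9 sample directions that held no residual variance, which left 24 degrees of freedom. The correction's overlap with the groups could not be counted, so p-values may still be too small. Benjamini-Hochberg adjustment ran over all entries, and a call is an adjusted p under 0.05. The procedure was run on simulated data whose removed directions were drawn at random, without regard to the groups. That simulation therefore cannot tell how an overlap of the correction with the groups acts. Tests are two-sided, intervals are 95%.

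The genes to name were up to 12 called genes each way for the main comparison, 5 each way for the genotype difference, up to 3 called members of each of 36 lists, and 25 fixed genes. Some genes that this rule or the lists hold are not reported here. The comparison, the lists and the fixed genes were chosen with earlier results of these data known. Coordinates are GENCODE M21 (GRCm38, mm10), matched by symbol for 10636 entries. Alternatives were other degrees of freedom, a filter on low values, no trend, robust fitting, quantile normalization, only the groups compared, a replicate block, and leaving out each library.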

Additional observations from a re-analysis of the deposited data

Results flagged for a closer look

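The responses to 4xLPS differed between APP23 and wildtype at 57 genes in limma, and 21 of them are named in the text. The APP23 response minus the wildtype response, in log2 units, was 0.303 for Dock9, 0.281 for St8sia4, 0.243 for 2610035D17Rik, 0.234 for Fam199x, 0.229 for Abcb1b, 0.215 for Zbtb38, 0.211 for Klf10, 0.202 for Alox5, 0.161 for Hnrnpd, 0.119 for Kat6a and 0.0869 for Tfe3. It was -0.272 for Sdr42e1, -0.249 for Tmem110, -0.208 for Kbtbd8, -0.192 for Tomm20, -0.187 for Cdc27, -0.156 for Nthl1, -0.111 for Hsf2, -0.104 for Fbxo36, -0.0951 for Btk and -0.0594 for Rpl37a.

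A single library lay far from the rest of its group in 10 of the 222 gene and group pairs examined; chance flags about 1 in 20 such groups. In APP23 4xLPS these were library 4 for Ticam2 (10.752, highest), Slc2a3 (8.182, lowest) and Klf10 (9.153, lowest), library 3 for Ifnar1 (11.292, highest) and library 2 for Tnf (6.985, lowest). In APP23 PBS they were library 4 for Rtp4 (9.441, highest) and Rab3ip (9.301, highest), library 3 for Tab2 (10.409, highest), library 5 for Spp1 (6.97, lowest) and library 6 for Axl (10.262, highest).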

How the results depend on the processing

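With 24 degrees of freedom limma called 0 genes higher, 0 lower, 57 for the genotype difference and 0 for APP23 4xLPS against 1xLPS. Counting all 33 residual degrees of freedom gave 15, 12, 579 and 162. Leaving out entries of low level gave 1 higher gene, 2610035D17Rik. A fit of only the groups compared called 409 genes for the genotype difference and 2 for 4xLPS against 1xLPS, with 21 and 7 degrees of freedom. Like the fit with 33, it set aside no direction for the removed surrogate variables. With a replicate block (16 degrees of freedom) the counts were 1 higher (2610035D17Rik), 0 lower, 2 for the genotype difference (Dock9 and Abcb1b) and 1 for 4xLPS against 1xLPS. Same-numbered libraries did not deviate together (correlations -0.00877, 0.00242, 0.0616 and 0.00322; 0 of 4 correlated best with their own number), so the libraries share only a number. Leaving out 1 library gave 0 to 1 higher, 0 to 0 lower, 34 to 80 for the genotype difference and 0 to 8 for 4xLPS against 1xLPS. The genotype count was 34 without 4xLPS library 4, 35 without 4xLPS library 1 and 37 without PBS library 1, all of APP23, and the 8 came without 1xLPS library 5; without 4xLPS library 1 it was 2. The 1 higher gene was 2610035D17Rik, without 4xLPS library 1, PBS library 3 or PBS library 6.

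The same settings were applied, after seeing the data, to the counts of list members lower at an unadjusted p under 0.05. The interferon count of 8 was 3 without entries of low level, when 20 of the 29 members were tested, and 5 to 8 when 1 library was left out. The inflammatory count of 3 was 6 with 33 degrees of freedom, 5 in a fit of only the groups compared and 1 to 5 when 1 library was left out. The TGF-beta count of 5 was 1 to 7 when 1 library was left out.

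Some small differences changed sign. Cx3cr1 was -0.0046 under quantile normalization, and the genotype difference of Cd14 was 0.0044 with the replicate block. When 1 library was left out, differences between APP23 4xLPS and PBS ran from -0.037 to 0.017 for Apoe, -0.016 to 0.048 for Axl, -0.017 to 0.036 for C3, -0.012 to 0.0037 for Cd14, -0.041 to 0.068 for Cd74, -0.045 to 0.012 for Clec7a, -0.070 to 0.035 for Cst7, -0.041 to 0.062 for H2-Aa, -0.0029 to 0.034 for Il1b, -0.045 to 0.015 for Kbtbd8, -0.044 to 0.066 for Lpl, -0.0011 to 0.044 for P2ry12 and -0.039 to 0.13 for Spp1. The genotype difference ran from -0.012 to 0.0053 for Cd14, -0.038 to 0.0076 for P2ry12 and -0.011 to 0.16 for Spp1. The cause was not tested.

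The limits are the 4 treated libraries, an unknown depth, and an unknown overlap of the removed surrogate variables with the groups.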
